A study of Rattus norvegicus with 24 samples.

Results

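Livers of rats that had received metformin daily for 14 days were compared with livers of rats that had received it for 3 days, and the same step in time was set beside it in rats given the vehicle. The members were the 4 arrays of metformin livers at day 14 and the 4 at day 3, that is 8 of the 24 arrays of the series, chosen by their titles; the 8 control arrays of the same days gave the control step. All rats were male RccHan Wistar, 7 to 8 weeks old at the start, and were dosed by gavage once a day with 800 mg/kg metformin or with the vehicle alone, a mixture of ethanol, Kolliphor HS 15 and tap water in the ratio 10 to 40 to 50. Each array came from 1 rat, and although the study had 5 rats to a group, 4 of each were on arrays, so n = 4 rats per group throughout. Rats of day 14 were also older than those of day 3, and age, length of dosing and day of killing cannot be told apart within the metformin arm.

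Metformin is a biguanide that lowers blood glucose, largely through the liver, where it reaches hepatocytes by organic cation transporters and acts on mitochondrial respiration. The young rat liver still grows, and its hepatocytes divide until adult size is approached. After a meal, insulin drives fatty acid synthesis through SREBP-1c and carbohydrate through ChREBP, while fasting and glucocorticoids raise gluconeogenic genes, and zinc and glucocorticoids raise metallothioneins.

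Of 22093 genes with a single symbol, 19686 passed the filter on low signal and were tested on log2 intensity. The hepatocyte gene Alb, which encodes albumin, lay at the 99.99th percentile of mean signal among the tested genes, and the 11 hepatocyte markers had a median of -0.05 for the log2 difference between days (0.03 after cyclic loess) with none called, although 3 were called lower with arrays set to a common median and 1 higher after cyclic loess. Within a group, no pair of arrays correlated below r = 0.9895 across genes. In a principal component analysis of the 16 arrays the first component held 25.8% of the variance and separated day 14 from day 3, and the second held 14.7% and separated the arms, metformin day 3 replicate 1 (-0.90) being the metformin array nearest to the control arrays. The labels give no hour of necropsy, feeding state or scan batch, and the part of these in the day step was not tested.

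**Figure D1:**
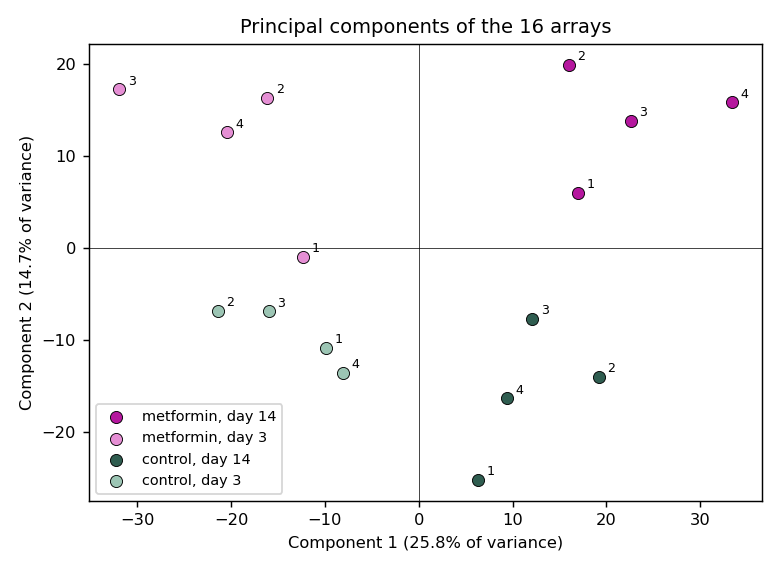
The 16 arrays on the first 2 principal components of log2 intensity (axes in component units, with the share of variance), coloured by arm and day and numbered by replicate. All 8 arrays of day 14 lie to the right of 0 and all 8 of day 3 to the left.

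Between day 14 and day 3 of metformin, 1433 genes were called (adjusted p under 0.05, limma with Benjamini-Hochberg adjustment over all genes), 7.28% of those tested, and 26.3% had an unadjusted p under 0.05. Of the calls, 649 were higher on day 14 (3.3%) and 784 were lower (3.98%). A log2 difference beyond 1 was found for 27 of the rises and 161 of the falls. In control livers the same step called 175 genes (0.889%), 26 higher (0.132%) and 149 lower (0.757%), and 9.87% of genes had an unadjusted p under 0.05. The calls of the metformin step fell to 738 without metformin day 14 replicate 3, to 538 without day 14 replicate 4, to 498 without day 3 replicate 3 and to 715 without day 3 replicate 4, and numbered 2226 without day 14 replicate 1. The control calls fell to 94 without control day 14 replicate 2, to 99 without day 14 replicate 4, to 98 without day 3 replicate 3 and to 115 without day 3 replicate 2.

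Most of the control step was contained in the metformin step. The lists shared 137 genes, 9.56% of the metformin calls and 78.3% of the control calls, and all 137 moved the same way in both arms, 127 lower and 10 higher on day 14. Among the 1296 genes called in the metformin step and not in the control step, 1103 (85.1%) had the same sign in control livers, against 65.8% of all tested genes. The median log2 difference of the 784 metformin falls was -0.55 in metformin livers and -0.26 in control livers, and that of the 649 rises was 0.40 in metformin livers and 0.08 in control livers. Across genes the log2 differences of the arms correlated at r = 0.60, and at 0.54 without the cell division lists. These are correlations across genes, which are not independent replicates, though the arms share no array.

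A test of the difference between the arms' steps called 1 gene of 19686 (0.00508%), against 1485 (7.54%) at an unadjusted p under 0.05. No difference between arms described here other than that of this gene passed the test. The precision of that test was lower: the median standard error was 0.17 for the difference of steps and 0.12 for the metformin step on the log2 scale, and in data simulated from these arrays it recovered 22% of changes of 0.5 and 78% of changes of 1. Slc27a3, a member of the family of fatty acid transport proteins, had log2 intensities of 4.80, 4.83, 4.83 and 4.87 in metformin livers on day 14, against 4.30, 4.15, 3.94 and 4.12 on day 3. Control livers had 4.26, 4.49, 4.33 and 4.44 on day 14, against 4.45, 4.41, 4.32 and 4.53 on day 3. The metformin days did not overlap and the control days did, and the steps differed by 0.76 ± 0.11 (SE, adjusted p = 0.0276). The signal was close to the filter value of 4.28. The count was 0 without metformin day 14 replicates 3 or 4, without metformin day 3 replicate 3, without control day 14 replicates 1, 3 or 4 and without control day 3 replicates 1 or 4. It was 5 without metformin day 14 replicate 1, 6 without metformin day 3 replicate 4, 3 without control day 14 replicate 2, and 2 without metformin day 14 replicate 2, metformin day 3 replicate 2 or control day 3 replicate 2.

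**Figure D2:**
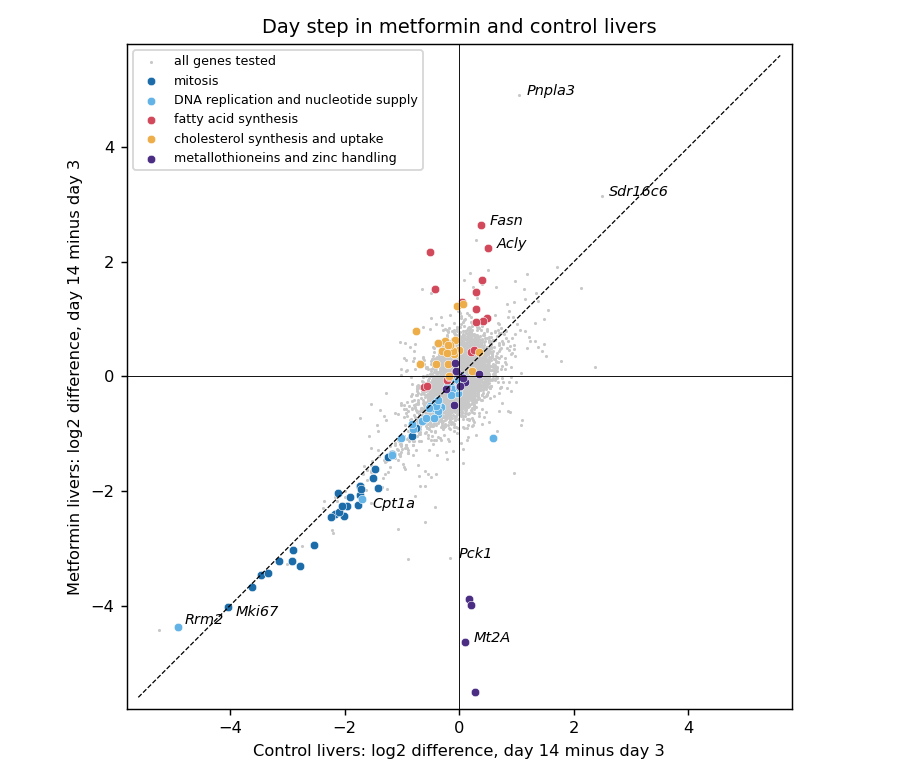
Log2 difference between day 14 and day 3 of each tested gene in metformin livers (vertical axis) and in control livers (horizontal axis), with 5 gene lists in colour and a dashed line where the arms are equal. Mitosis genes lie near the line, 29 of the 30 below it. Farther from the line lie Mt2A (-4.64 in metformin livers, 0.10 in control livers), Pck1 (-3.18 in metformin livers, -0.16 in control livers) and Fasn (2.64 in metformin livers, 0.38 in control livers).

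The rises and the falls of the metformin step differed in signal. Of the 649 rises, 282 did not pass a stricter filter at the 50th percentile of all values, against 1 of the 784 falls and 3695 of all 19686 genes. The median log2 intensity of an array lay between 4.89 and 5.11 in metformin livers on day 14, against 4.80 to 4.91 on day 3, while control livers had 4.91 to 5.01 on day 14 and 4.83 to 5.02 on day 3. The median log2 difference of all genes was 0.04 in the metformin step and 0.01 in the control step. Setting each array's median to a common value moved the first by -0.15 to -0.11 and turned the split of 649 higher and 784 lower into 149 and 2179. Quantile normalization gave 212 higher and 490 lower, and cyclic loess gave 302 and 515. How far array signal contributes to the weak rises was not tested.

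**Figure D3:**
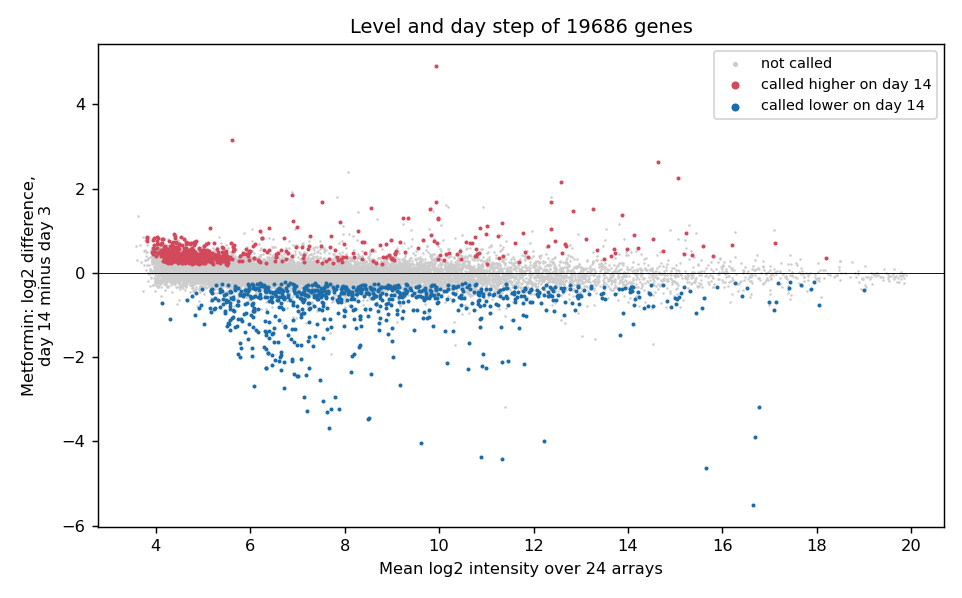
Log2 difference between day 14 and day 3 of metformin (vertical axis) against mean log2 intensity over 24 arrays (horizontal axis) for each tested gene. Called rises had a median intensity of 4.87 and called falls one of 8.17, against 6.21 for all tested genes.

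Genes of cell division fell in both arms. All 30 tested mitosis genes were lower on day 14 of metformin, 29 of them called, with a median log2 difference of -2.26, and 28 of the 30 were called lower in control livers, with a median of -1.99. In each arm all 30 were lower in every rat of day 14 than in any rat of day 3, whereas over all genes this held for 5.75% in metformin livers and 4.07% in control livers. The opposite order, every rat of day 14 higher, held for 7.14% of genes in metformin livers and 2.1% in control livers. The call missed in metformin livers was Foxm1 (-0.46, adjusted p = 0.0560), the transcription factor of the G2 phase, and in control livers Foxm1 and Bub1b. In bulk liver, fewer dividing cells and less RNA of these genes per cell cannot be told apart. The metformin median lay between -2.21 and -2.41 under the 3 scalings. The metformin step was the lower of the 2 for 29 of the 30 genes, with a median difference of steps of -0.21. In the test of that difference 0 of the 30 had an unadjusted p under 0.05.

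Mki67, which encodes the proliferation marker Ki-67, had log2 intensities of 5.64, 7.44, 7.59 and 7.55 in metformin livers on day 14, against 10.20, 10.87, 12.21 and 11.06 on day 3. Control livers had 7.41, 5.57, 6.36 and 6.67 on day 14, against 9.90, 10.53, 10.64 and 11.04 on day 3. The days did not overlap in either arm. The log2 difference of Mki67 was -4.03 ± 0.56 in metformin livers (SE, 16.3-fold on the deposited scale, adjusted p = 0.000562) and -4.03 ± 0.56 in control livers (adjusted p = 0.00150), and the standard error of the difference between these steps was 0.79.

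Top2a, the topoisomerase that untangles replicated chromosomes, had 5.35, 6.46, 6.61 and 6.52 in metformin livers on day 14, against 8.87, 9.57, 10.54 and 9.82 on day 3, and fell by 3.46 ± 0.47 (adjusted p = 0.000559). In control livers, with 5.11 to 6.46 on day 14 and 8.95 to 10.01 on day 3, its difference was -3.46 as well. Ccna2, cyclin A of S and G2 phase, had a log2 difference of -3.44 in metformin livers and -3.34 in control livers. Ccnb2, a cyclin of mitotic entry, had -3.31 in metformin livers and -2.78 in control livers. The ID of its probe set names chromosome 1 and RefSeq places the gene on chromosome 8, where a second probe set had -2.61 in metformin livers and -2.15 in control livers (adjusted p = 0.00503 and 0.0553 with every probe set tested). Plk1, a kinase of spindle assembly, had -2.94 in metformin livers and -2.53 in control livers, and Cdk1, the kinase that cyclins A and B activate, -1.91 in metformin livers and -1.73 in control livers. Ect2, which acts at cytokinesis, had -3.23 in metformin livers and -3.15 in control livers, and Ckap2, a spindle protein, -3.68 in metformin livers and -3.61 in control livers. Bub1, a kinase of the spindle checkpoint, had -2.44 in metformin livers and -2.02 in control livers, and Birc5, which encodes survivin, -1.96 in metformin livers and -1.42 in control livers. All of these genes were called in both arms, and the calls held without any single rat of the arm except that of Ccnb2 in control livers, which was lost without day 14 replicates 2 or 3 or day 3 replicates 3 or 4.

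Promoters of 3 of these genes are shown because most mitosis genes that fell share a short motif there, the cell cycle homology region TTTGAA, at which the DREAM and MuvB complexes repress or activate genes of G2 and mitosis. Windows run from 250 bases before to 50 after the start of the RefSeq gene on GRCr8, 5′ to 3′ on the gene's strand, with TTTGAA in capitals. The window of Mki67 is chr1:199952544-199952843 on the minus strand, that of Cdk1 is chr20:19265043-19265342 on the plus strand and that of Plk1 is chr1:186147408-186147707 on the plus strand.
Mki67: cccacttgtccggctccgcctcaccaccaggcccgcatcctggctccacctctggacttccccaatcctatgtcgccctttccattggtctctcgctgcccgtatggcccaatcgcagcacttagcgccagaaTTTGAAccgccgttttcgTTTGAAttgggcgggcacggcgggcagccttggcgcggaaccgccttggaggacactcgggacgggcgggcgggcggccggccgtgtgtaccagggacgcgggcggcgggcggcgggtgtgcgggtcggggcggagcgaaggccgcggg
Cdk1: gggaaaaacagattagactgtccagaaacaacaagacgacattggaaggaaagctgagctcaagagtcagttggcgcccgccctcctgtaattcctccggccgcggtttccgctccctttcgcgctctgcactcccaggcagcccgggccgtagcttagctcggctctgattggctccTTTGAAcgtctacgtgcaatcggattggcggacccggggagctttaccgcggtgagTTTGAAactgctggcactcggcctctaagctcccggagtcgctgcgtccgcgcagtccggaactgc
Plk1: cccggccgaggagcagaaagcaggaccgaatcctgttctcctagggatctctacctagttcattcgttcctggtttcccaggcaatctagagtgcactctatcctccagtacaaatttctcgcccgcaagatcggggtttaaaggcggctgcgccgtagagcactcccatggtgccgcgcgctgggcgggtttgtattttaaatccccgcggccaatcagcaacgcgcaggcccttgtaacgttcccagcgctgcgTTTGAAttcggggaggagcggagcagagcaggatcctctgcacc
Searched on both strands, TTTGAA was present in 19 of the 25 mitosis promoters that could be matched (76.0%), in 1 of 25 promoters of the DNA replication list (4.00%) and in 18.4% of all 33469 windows. Mki67 and Cdk1 had 2 matches and Plk1 had 1. A match describes the letters of the window and is no measured site of binding.

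Genes of DNA replication and nucleotide supply fell less far. Of 30 tested members, 19 were called lower on day 14 of metformin and none higher, with a median of -0.53, and 7 were called lower in control livers, with a median of -0.38. Only 9 of the metformin calls were made without metformin day 3 replicate 3 and 12 without day 3 replicate 4, and 4 of the control calls without control day 14 replicate 2. Rrm2, the regulated subunit of ribonucleotide reductase, had log2 intensities of 6.80, 8.19, 8.64 and 8.79 in metformin livers on day 14, against 11.12, 12.28, 14.25 and 12.25 on day 3. Its log2 difference was -4.37 ± 0.69 in metformin livers (adjusted p = 0.000903) and -4.91 ± 0.69 in control livers (adjusted p = 0.00159). Rrm2l1, an Rrm2-like gene by its symbol, had -4.42 in metformin livers and -5.25 in control livers, and whether the 2 probe sets measure separate transcripts is uncertain. Tk1, which salvages thymidine, had -2.14 in metformin livers and -1.70 in control livers. The replicative helicase subunit Mcm3 had -0.55 in metformin livers and -0.48 in control livers, and Mcm6, another of its subunits, -0.91 in metformin livers and -0.80 in control livers, with no overlap between days in either arm. These genes were called in both arms.

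Among G1 cyclins and inhibitors of cyclin-dependent kinases, 3 inhibitors fell on day 14 of metformin. In the list of 17 G1 cyclins and inhibitors no other member was called, the median was -0.09, and none was called in control livers. Cdkn1a, which encodes p21, had 7.19, 7.35, 7.29 and 7.16 in metformin livers on day 14, against 9.16, 8.79, 9.78 and 8.32 on day 3. Control livers had 7.27, 7.07, 8.19 and 8.27 on day 14, against 7.99, 8.30, 8.30 and 8.17 on day 3. The 4 metformin livers of day 14 lay close together and below all of day 3, and the control days overlapped. Cdkn1a fell by 1.76 ± 0.37 in metformin livers (adjusted p = 0.00795), and its difference was -0.49 in control livers (adjusted p = 0.733). Cdkn2c, which encodes p18, fell by 0.65. Its difference was -0.44 ± 0.11 in control livers (adjusted p = 0.0613), and its days did not overlap in either arm. Cdkn1b, which encodes p27, fell by 0.34, and its call was lost after quantile normalization and cyclic loess. The count of 3 was 5 without metformin day 14 replicate 2, and 2 without day 14 replicates 3 or 4 or day 3 replicates 3 or 4. With arrays set to a common median, 7 members of the list were called lower.

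**Figure D4:**
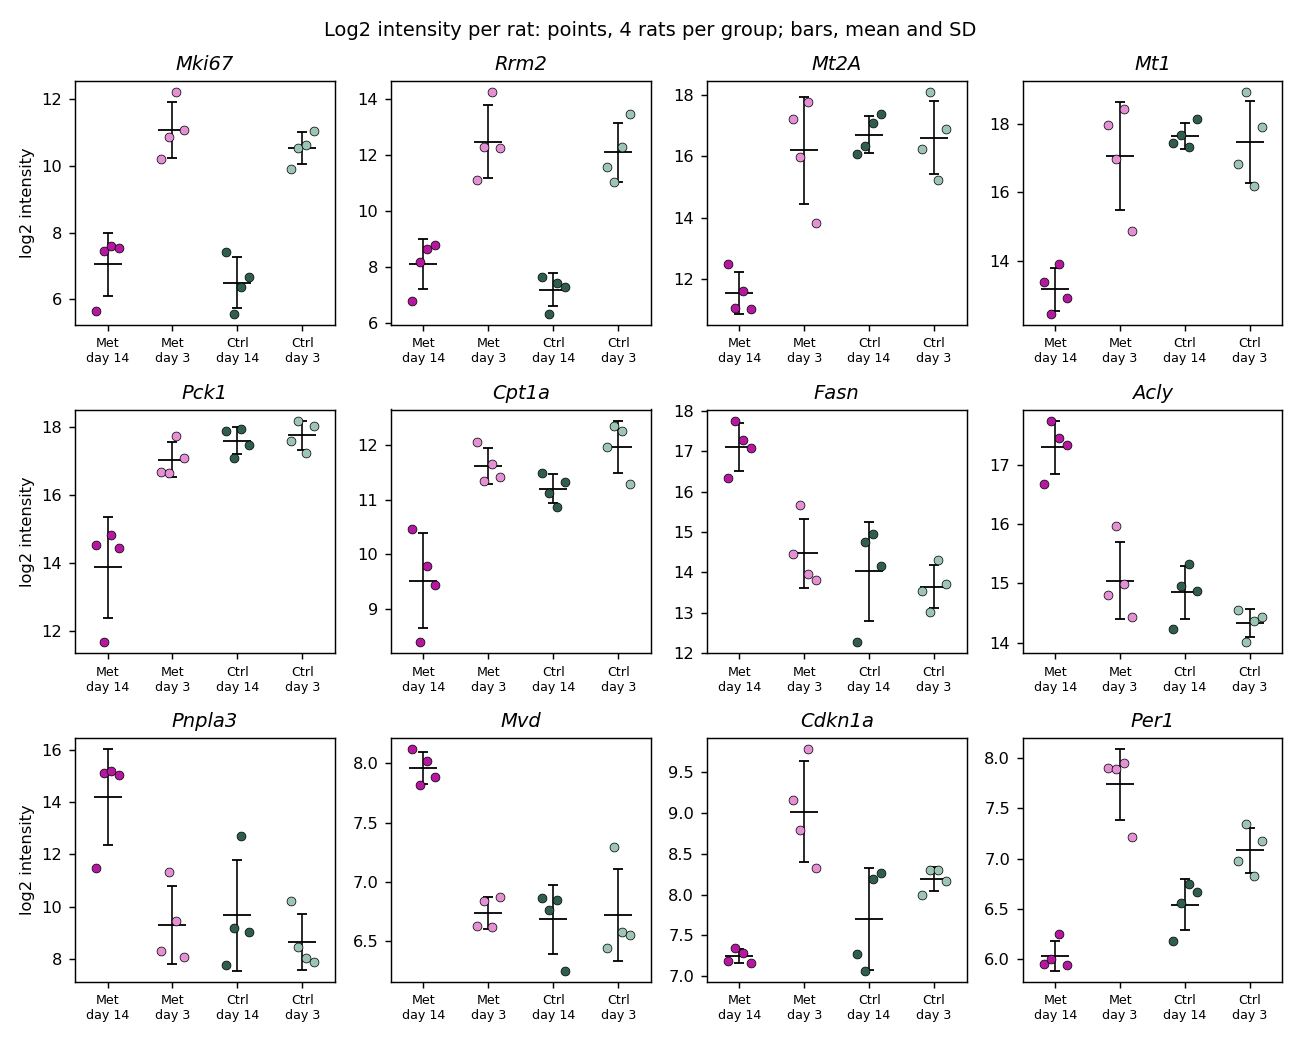
Log2 intensity of 12 genes in each rat (points), with the mean (long bar) and SD (error bars) of 4 rats per group; each panel has its own axis. Mki67 and Rrm2 were lower on day 14 in both arms, while Mt2A, Mt1 and Pck1 were low on day 14 of metformin alone among these 4 groups.

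Metallothioneins, small proteins that bind zinc and copper, included the largest fall among the named genes of the metformin step, that of Mt1m. Of 13 genes of metal binding and zinc handling, 5 were called lower on day 14 of metformin and none higher, while none was called in control livers. The 5 were Mt1m, Mt2A, Mt1f, Mt1 and Slc39a14, a zinc and iron importer, and the median of the list was -0.17 because the other 8 members, among them the metal-sensing transcription factor Mtf1 (-0.09), had small differences. The 4 metallothioneins were called under all 3 scalings.

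Mt2A had log2 intensities of 12.48, 11.07, 11.62 and 11.03 in metformin livers on day 14, against 17.21, 15.99, 17.76 and 13.81 on day 3. Control livers had 16.06, 16.34, 17.07 and 17.37 on day 14, against 16.25, 18.09, 15.22 and 16.89 on day 3. All 4 metformin livers of day 14 lay below the other 12, and metformin day 3 replicate 4 was the lowest of those 12. Mt2A fell by 4.64 ± 0.74 (25.0-fold, adjusted p = 0.000913), against a difference of 0.10 ± 0.74 in control livers (adjusted p = 0.979), and the difference between the steps was -4.74 ± 1.05 (adjusted p = 0.255).

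Mt1 had 13.38, 12.47, 13.91 and 12.94 in metformin livers on day 14, against 17.96, 16.97, 18.42 and 14.89 on day 3, and fell by 3.89 ± 0.77 (adjusted p = 0.00479). In control livers it had 17.43, 17.68, 17.31 and 18.15 on day 14, against 16.84, 18.92, 16.20 and 17.91 on day 3. The ID of this probe set, the brighter of 2 for Mt1, names chromosome 17, whereas RefSeq places Mt1 on chromosome 19. The probe set whose ID names chromosome 19 had 5.46, 5.06, 5.81 and 5.15 in metformin livers on day 14, against 9.80, 8.01, 10.03 and 6.69 on day 3, a difference of -3.26 ± 0.62 (adjusted p = 0.00810 with every probe set tested), and one of -0.13 ± 0.62 in control livers. The same order of groups held for Mt1m, with 10.80 to 13.29 in metformin livers on day 14, against 14.88 to 19.12 on day 3, and a difference of -5.50 ± 0.86 (45.4-fold, adjusted p = 0.000839). Mt1f had 8.29 to 9.10 in metformin livers on day 14, against 10.39 to 14.32 on day 3, and fell by 4.00 ± 0.79. Rat metallothionein genes are near-identical in sequence, so these 4 probe sets may measure overlapping transcripts and are not 4 independent results. The 4 calls held without any single metformin rat, whereas that of Slc39a14 (-0.50) was lost without day 14 replicates 3 or 4 or day 3 replicates 3 or 4, and after quantile normalization and cyclic loess.

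The promoters of Mt1 and Mt2A are shown because they hold repeated copies of the metal response element, the motif at which Mtf1 binds metallothionein genes when zinc is high. Capitals mark TGCGCNC or TGCACNC on either strand. The window of Mt1 is that of the RefSeq gene, and what the brighter probe set of Mt1 measures was not tested. It is chr19:10832926-10833225 and that of Mt2A is chr19:10838659-10838958, both on the minus strand of GRCr8 in RefSeq.
Mt1: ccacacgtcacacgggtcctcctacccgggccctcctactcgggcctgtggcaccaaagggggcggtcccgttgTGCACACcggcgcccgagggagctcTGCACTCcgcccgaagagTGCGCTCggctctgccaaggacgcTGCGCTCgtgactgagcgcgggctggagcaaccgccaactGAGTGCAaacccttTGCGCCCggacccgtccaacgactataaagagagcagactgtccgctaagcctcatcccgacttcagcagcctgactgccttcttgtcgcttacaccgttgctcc
Mt2A: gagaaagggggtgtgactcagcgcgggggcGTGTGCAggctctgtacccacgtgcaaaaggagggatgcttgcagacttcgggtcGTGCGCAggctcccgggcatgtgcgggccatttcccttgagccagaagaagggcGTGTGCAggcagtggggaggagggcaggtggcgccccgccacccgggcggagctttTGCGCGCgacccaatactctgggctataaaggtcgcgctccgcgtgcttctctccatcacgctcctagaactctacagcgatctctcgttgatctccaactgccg
The window of Mt1 held 6 matches and that of Mt2A held 4. At least 1 match was present in 6 of the 9 promoters of this list that could be matched (66.7%) and in 24.2% of all 33469 windows.

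Most genes of fatty acid synthesis rose in RNA signal in the metformin step. Of 18 tested genes of this pathway, 10 were called higher on day 14 of metformin and none lower, with a median log2 difference of 0.99, while in control livers only Acsl3, a fatty acid activating enzyme, was called (-0.57) and the median was 0.23. The call of Acsl3 was lost without any control rat other than day 14 replicate 3. The count of 10 was 5 without metformin day 3 replicate 3. Under the scalings 8 genes of the list were called higher, and the median lay between 0.84 and 1.07.

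Fasn, fatty acid synthase, had log2 intensities of 16.33, 17.76, 17.28 and 17.09 in metformin livers on day 14, against 14.45, 15.68, 13.95 and 13.81 on day 3. Control livers had 12.27, 14.74, 14.94 and 14.16 on day 14, against 13.55, 13.03, 14.31 and 13.72 on day 3. The 4 metformin livers of day 14 were above all 12 others. Fasn rose by 2.64 ± 0.53 (6.24-fold, adjusted p = 0.00511), against a difference of 0.38 ± 0.53 in control livers (adjusted p = 0.877).

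Acly, which makes cytosolic acetyl-CoA from citrate, had 16.67, 17.73, 17.45 and 17.33 in metformin livers on day 14, against 14.80, 15.97, 14.99 and 14.43 on day 3. In control livers it had 14.24, 14.96, 15.32 and 14.87 on day 14, against 14.56, 14.01, 14.36 and 14.43 on day 3. It rose by 2.25 ± 0.35 in metformin livers (adjusted p = 0.000834), and its difference was 0.51 in control livers (adjusted p = 0.683). Of the acetyl-CoA carboxylases, the mitochondrial form Acacb rose by 1.69 ± 0.34 and the cytosolic form Acaca by 1.48. Also called higher were Slc25a1, the mitochondrial citrate carrier (0.47), Acss2, which makes acetyl-CoA from acetate (0.95), Mid1ip1, an activator of acetyl-CoA carboxylase (1.29), and Srebf1, which encodes SREBP-1 (1.17). The call of Srebf1 (adjusted p = 0.0455) was lost without any metformin rat other than day 3 replicate 1 and under all 3 scalings, and those of Acaca and Mid1ip1 without day 3 replicate 3. Mlxipl, which encodes ChREBP, had -0.18 (adjusted p = 0.711) and Scd, the stearoyl-CoA desaturase, 1.01 (adjusted p = 0.0628).

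The remaining 2 calls of the list also depended on single rats. Elovl6, which extends palmitate to stearate, had 12.80, 16.66, 15.11 and 14.97 in metformin livers on day 14, against 12.48, 12.58, 13.59 and 12.23 on day 3, so the days overlapped in replicate 1 of day 14. It rose by 2.17 ± 0.63 (adjusted p = 0.0412), and among fits that left out 1 metformin rat the call held only without day 14 replicate 1, the adjusted p otherwise lying between 0.0565 and 0.108. The call was also lost after quantile normalization and cyclic loess (adjusted p = 0.0530 and 0.0513). The ID of the Elovl6 probe set used names no chromosome. With every probe set tested, no probe set of Elovl6 was called in metformin livers (adjusted p 0.0664 to 0.0901). Me1, malic enzyme, a source of NADPH, had 13.34, 15.56, 15.26 and 15.38 on day 14, against 13.51, 13.78, 13.40 and 12.78 on day 3, and rose by 1.52 ± 0.39 (adjusted p = 0.0242). Its call was lost without day 14 replicates 2, 3 or 4 or day 3 replicates 3 or 4, with adjusted p between 0.0576 and 0.0938.

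Pnpla3, a lipid droplet protein that SREBP-1c and ChREBP induce, had the largest rise among the named genes. Its log2 intensities were 11.46, 15.13, 15.18 and 15.03 in metformin livers on day 14, against 8.30, 11.33, 9.45 and 8.08 on day 3. Control livers had 7.78, 9.17, 12.71 and 9.03 on day 14, against 10.20, 8.44, 8.05 and 7.87 on day 3. The metformin days did not overlap, although day 14 replicate 1 lay only just above day 3 replicate 2, and 1 control liver of day 14 was higher than the lowest metformin liver of that day. Pnpla3 rose by 4.91 ± 1.01 (30.1-fold, adjusted p = 0.00650), against 1.03 ± 1.01 in control livers (adjusted p = 0.809). Among the 18 genes of triglyceride assembly and lipid droplets only Pnpla3 was called higher and only Lpin2, a phosphatidate phosphatase, was called lower. The call of Lpin2 (-1.03, adjusted p = 0.0350) held only without day 14 replicate 1 or day 3 replicate 2, and was lost without any other single metformin rat and after quantile normalization and cyclic loess (adjusted p 0.0688 or more).

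Genes of cholesterol synthesis moved in the same direction with smaller differences. Of 20 tested genes, 7 were called higher on day 14 of metformin and none lower, and 19 of 20 had a difference above 0, with a median of 0.46. In control livers none was called and 17 of 20 were below 0, with a median of -0.17. The 7 were Mvd, Acat2, Pmvk, Tm7sf2, Nsdhl, Ebp and Sc5d. Their count was 2 without metformin day 14 replicates 3 or 4 or day 3 replicates 3 or 4, 3 without day 14 replicate 2 and 4 without day 3 replicate 2, and 2 with arrays set to a common median, against 8 and 10 after quantile normalization and cyclic loess.

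Mvd, which makes isopentenyl diphosphate from mevalonate, had 8.12, 7.82, 8.02 and 7.88 in metformin livers on day 14, against 6.63, 6.84, 6.62 and 6.87 on day 3. In control livers it had 6.86, 6.76, 6.85 and 6.25 on day 14, against 6.44, 7.29, 6.58 and 6.55 on day 3. The 4 metformin livers of day 14 were above all others with little spread. Mvd rose by 1.22 ± 0.15 (adjusted p = 0.000347), against a difference of -0.03 ± 0.15 in control livers, and the steps differed by 1.25 ± 0.22 (adjusted p = 0.0821). Acat2, the cytosolic acetoacetyl-CoA thiolase at the head of the pathway, rose by 1.27 ± 0.24 (adjusted p = 0.00314). Both calls held without any single metformin rat, unlike those of the other 5 genes. Srebf2, which encodes the pathway's main transcription factor, had a difference of -0.00 (adjusted p = 0.994).

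Fuel use in mitochondria was represented by fewer calls. In the list of pyruvate dehydrogenase and its kinases 4 of 12 genes were called higher and none lower, with a median of 0.24, and none was called in control livers. Pdk4, the kinase that switches pyruvate dehydrogenase off in fasting, had 13.34, 13.41, 12.91 and 12.80 in metformin livers on day 14, against 11.15, 11.29, 11.42 and 11.91 on day 3. Control livers had 12.52, 13.05, 14.05 and 13.77 on day 14, against 12.35, 12.73, 12.41 and 12.01 on day 3. Pdk4 rose by 1.67 ± 0.27 (adjusted p = 0.00112), against 0.97 ± 0.27 in control livers (adjusted p = 0.109), and the low group was metformin day 3. Pdk1, a kinase of the same family, rose by 0.86 ± 0.13 (adjusted p = 0.000756). The phosphatase Pdp2 had 0.73 and the complex's binding protein Pdhx 0.54, and these calls, unlike those of the kinases, were lost without some single rats and with arrays set to a common median. The count of 4 was 6 without metformin day 14 replicate 1 and 2 without day 14 replicate 4, and with arrays set to a common median 2 genes were called higher and 2 lower.

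Cpt1a, which admits long-chain fatty acids to mitochondria for oxidation, had 10.46, 8.40, 9.79 and 9.45 in metformin livers on day 14, against 12.06, 11.34, 11.65 and 11.41 on day 3. In control livers it had 11.48, 11.13, 10.87 and 11.32 on day 14, against 11.96, 12.35, 12.26 and 11.29 on day 3. It fell by 2.09 ± 0.36 in metformin livers (adjusted p = 0.00161), with no overlap between days, against a difference of -0.77 ± 0.36 in control livers (adjusted p = 0.483). Ppara, the nuclear receptor that drives this programme, fell by 1.05 ± 0.20 in metformin livers (adjusted p = 0.00366). Its difference was -0.36 ± 0.20 in control livers (adjusted p = 0.591). Cpt1a, Ppara and the trifunctional protein subunits Hadha and Hadhb were the 4 of 29 genes called lower in the list of PPARA targets. The list's median was -0.30 in metformin livers and -0.41 in control livers, where none was called. The count of 4 was 9 without metformin day 14 replicate 2, 2 without day 14 replicates 3 or 4 or day 3 replicates 1 or 4, 13 with arrays set to a common median, 2 after quantile normalization and 3 after cyclic loess. The calls of Cpt1a and Ppara held in all of these.

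Among genes of glucose production 1 had a large change in RNA signal. Pck1, phosphoenolpyruvate carboxykinase, the entry step of gluconeogenesis, had log2 intensities of 14.53, 11.66, 14.82 and 14.44 in metformin livers on day 14, against 16.68, 16.64, 17.74 and 17.09 on day 3. Control livers had 17.89, 17.09, 17.93 and 17.48 on day 14, against 17.60, 18.17, 17.23 and 18.04 on day 3. Every metformin liver of day 14 was below the other 12 livers, and replicate 2 was the lowest. Pck1 fell by 3.18 ± 0.49 (9.04-fold, adjusted p = 0.000756) and by 2.44 without that rat, against a difference of -0.16 ± 0.49 in control livers (adjusted p = 0.953).

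Of the 16 gluconeogenesis genes only Pck1 and Foxo1 were called lower in the metformin step, with a median of -0.11 (1 call after quantile normalization and after cyclic loess, 4 with arrays set to a common median), and G6pc1, glucose-6-phosphatase, had -0.78 (adjusted p = 0.318). Foxo1, a transcription factor that insulin inactivates, fell by 0.53 ± 0.13 (adjusted p = 0.0145), and its call was lost without day 14 replicate 4 (-0.45, adjusted p = 0.0676) and after quantile normalization and cyclic loess. Igfbp1, an IGF binding protein that insulin represses, had a difference of -3.18 in metformin livers (adjusted p = 0.0529), which did not pass the test, and -0.90 in control livers. None of the 22 genes of insulin, IGF and AMPK signalling was called in either arm, although 5 were called lower in the metformin step with arrays set to a common median and up to 3 when 1 metformin rat was left out (day 14 replicate 1). Slc2a5, the fructose transporter, had 7.84, 9.99, 9.25 and 8.80 in metformin livers on day 14, against 7.79, 7.52, 6.82 and 7.05 on day 3, and rose by 1.68 ± 0.36 (adjusted p = 0.00872). Tkfc, which phosphorylates glyceraldehyde from fructose, was the other call among 20 genes of glycolysis and fructose use (1.05, adjusted p = 0.0266), and was lost without day 14 replicates 2, 3 or 4 or day 3 replicates 3 or 4 (adjusted p 0.0539 to 0.107).

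Genes that glucocorticoids regulate were called in both directions. Of 19 genes in this list 6 were called lower on day 14 of metformin and 1 higher, with a median of -0.43, while the control median was 0.02 (-0.01 after quantile normalization and -0.02 with arrays set to a common median) with only Sds called. Mt1, Mt2A, Pck1 and Per1 stand in this list and in others. Tsc22d3, which encodes the glucocorticoid-induced leucine zipper, fell by 0.88 (adjusted p = 0.00791), and that call held without any single metformin rat. Klf9, a zinc finger factor that glucocorticoids induce, had -1.12 (adjusted p = 0.0426), and its call was lost without day 14 replicates 2, 3 or 4 or day 3 replicates 1, 2 or 3, and after quantile normalization and cyclic loess. Nr3c1, the glucocorticoid receptor, rose by 0.81 (adjusted p = 0.0148). Fkbp5, another classic target, had -0.13 (adjusted p = 0.297). The rise of Nr3c1 was not called without metformin day 3 replicates 3 or 4.

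Per1, a clock repressor that glucocorticoids also induce, had 5.94 to 6.25 in metformin livers on day 14, against 7.90, 7.89, 7.95 and 7.21 on day 3. Control livers had 6.18, 6.56, 6.75 and 6.67 on day 14, against 6.98, 7.34, 6.83 and 7.17 on day 3. The days did not overlap in either arm. Per1 fell by 1.71 ± 0.22 in metformin livers (adjusted p = 0.000379), and its difference was -0.54 ± 0.22 in control livers (adjusted p = 0.360). Of 21 clock genes, Usp2, a deubiquitinase with a daily rhythm (-1.52), and Tef, an output factor (-0.31), were the other calls in metformin livers, all lower, and Nfil3, a repressor in the clock's output, was called higher in control livers (0.95), a call lost without control day 14 replicates 3 or 4. The core clock genes Bmal1 (-0.04) and Clock (-0.10) and the rhythmic factor Nr1d1 (0.17, adjusted p = 0.773) were not called. Usp2 had a difference of -0.98 ± 0.25 in control livers (adjusted p = 0.0738), and its days did not overlap in either arm. The call of Tef was lost without metformin day 14 replicate 4 or day 3 replicate 3. The hour of killing was not tested because the sources used here do not give it.

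Genes of drug metabolism and bile formation were called lower more often than higher, as were all tested genes (3.98% lower, 3.3% higher). In the xenobiotic list 8 of 26 genes were called lower and 1 higher on day 14 of metformin, with a median of -0.25, against 1 lower in control livers, where the median was -0.22. Abcb1a, the P-glycoprotein efflux pump, had 8.23, 7.20, 7.41 and 7.59 in metformin livers on day 14, against 8.95, 8.74, 9.36 and 9.18 on day 3, and fell by 1.45 ± 0.22 (adjusted p = 0.000756). It was also the control call, with a difference of -1.32 ± 0.22 (adjusted p = 0.00472). The xenobiotic receptors Nr1i2 (PXR), Nr1i3 (CAR) and Ahr had -0.88, -1.61 and -1.29 in metformin livers. The first 2 calls held without any single metformin rat while that of Ahr was lost without day 3 replicate 3. In control livers Nr1i2 had -0.32 ± 0.15 (adjusted p = 0.503), and its days did not overlap in either arm. The enzymes Cyp2b1 (-2.21) and Cyp2b2 (-2.25) are near-identical copies and may not be measured apart. The rise was that of Abcc2, a bile export pump (0.71), a call lost without day 14 replicate 2 or day 3 replicates 1 or 4, after quantile normalization and with arrays set to a common median. The 8 falls numbered 3 without metformin day 3 replicate 3, 4 without day 3 replicates 1 or 4, and 5 without day 14 replicates 1, 3 or 4, and they numbered 4 after quantile normalization and after cyclic loess. The calls of Cyp2b1 and Cyp2b2 held only without day 14 replicate 2 or day 3 replicate 2 among fits without 1 metformin rat.

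Of 18 genes of bile acid synthesis and transport, 5 were called lower and none higher in metformin livers, with a median of -0.17, and none was called in control livers. They were the sterol exporters Abcg5 and Abcg8, the phospholipid exporter Abcb4, the bile acid importer Slc10a1 and Nr0b2. Nr0b2, the repressor SHP that bile acids induce, had 5.44, 5.24, 5.85 and 5.73 in metformin livers on day 14, against 8.53, 6.60, 6.78 and 6.93 on day 3, and fell by 1.64 ± 0.39 (adjusted p = 0.0147). Cyp7a1, the rate-limiting enzyme of bile acid synthesis, had 12.83, 14.85, 16.17 and 16.15 on day 14, against 15.84, 16.38, 16.44 and 14.15 on day 3, a difference of -0.71 ± 0.79 (adjusted p = 0.587) between overlapping groups. In control livers Nr0b2 had a difference of -0.60 (adjusted p = 0.664). Slc10a1 had -0.37 in metformin livers and -0.26 in control livers (adjusted p = 0.164 in the latter), and its days did not overlap in either arm. The count of 5 was 2 without metformin day 14 replicates 3 or 4 or day 3 replicates 3 or 4, and 3 without day 3 replicate 1. It was 2 after quantile normalization, 3 after cyclic loess and 7 with arrays set to a common median, and the call of Nr0b2 held in all of these.

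Antioxidant genes under NRF2 had 5 calls among 18 in metformin livers, all lower, and 2 in control livers, also lower. Gclm and Gclc, the subunits of the enzyme that begins glutathione synthesis, had log2 differences of -0.79 and -0.60 in metformin livers, and Gclc had -0.89 in control livers. Gclm had 14.36, 14.05, 13.86 and 14.04 in metformin livers on day 14, against 14.83, 14.77, 14.92 and 14.96 on day 3, with no overlap. Its difference was -0.63 ± 0.16 in control livers (adjusted p = 0.0597), where the days did not overlap either. Akr7a3, an aflatoxin aldehyde reductase, fell by 1.93 in metformin livers (adjusted p = 0.0113), and this call was lost without day 14 replicate 4. In control livers Akr7a3 had -1.35 ± 0.44 (adjusted p = 0.195), and its days did not overlap in either arm. The other calls were Aldh1a1 and Ephx1 in metformin livers, and Abcc4 in control livers. The median of the list was -0.01 in metformin livers and -0.22 in control livers, and in metformin livers it turned to 0.00 and 0.01 after quantile normalization and cyclic loess. The count of 5 was 1 without day 14 replicate 4, 2 without day 14 replicate 3 or day 3 replicates 3 or 4, and 3 without day 14 replicate 1 or day 3 replicate 1. It was 1 after quantile normalization and 2 after cyclic loess, and the control count of 2 was 1 without control day 14 replicate 1 or day 3 replicates 1, 3 or 4.

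Genes of amino acid breakdown were called in both arms. Of 47 genes in the list covering urea formation and amino acid catabolism, 4 were called higher and 2 lower on day 14 of metformin, with a median of 0.06, and 5 were called higher in control livers, with a median of 0.25. The metformin median was -0.09 with arrays set to a common median. Among all tested genes 3.3% were called higher and 3.98% lower in the metformin step, and 0.132% higher in the control step. The metformin step lay below the control step for 41 of the 47 genes, with a median difference of steps of -0.17. No member passed the test of that difference. Acmsd, which diverts tryptophan away from NAD synthesis, had 11.08, 9.80, 10.14 and 10.21 in metformin livers on day 14, against 8.69, 9.21, 8.51 and 9.57 on day 3, and rose by 1.31 ± 0.30. Its difference was 1.37 ± 0.30 in control livers (adjusted p = 0.0261), where the days did not overlap either. Its metformin call was lost without day 3 replicate 3, and its control call without any control rat other than day 14 replicate 4 or day 3 replicate 2. Ass1, an enzyme of the urea cycle, had 0.35 in metformin livers and 0.45 in control livers, and the metformin call was lost without day 14 replicates 3 or 4 or day 3 replicate 3 and with arrays set to a common median. Sds, serine dehydratase, had 7.14, 5.40, 6.83 and 6.67 in metformin livers on day 14, against 5.71, 6.07, 7.56 and 5.63 on day 3, a difference of 0.27 (adjusted p = 0.719). In control livers it had 9.45, 8.06, 8.30 and 8.25 on day 14, against 7.45, 7.06, 6.39 and 6.07 on day 3, and rose by 1.77 ± 0.42 (adjusted p = 0.0476), a call lost without any control rat other than day 3 replicate 1.

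The amino acid counts were small and depended on single rats. Without metformin day 3 replicate 3 no member was called in the metformin step, without day 14 replicate 4 only 1 was, and without day 14 replicate 3 there were 2 rises and 1 fall. No fall was called without day 14 replicate 2 or day 3 replicates 2 or 4. The 5 control rises numbered 1 to 3 when any control rat other than day 3 replicate 1 was left out. Scaling gave 3 rises and 0 falls (quantile), 1 and 5 (common median) or 4 and 0 (cyclic loess) in metformin livers.

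Some of the named changes were shared with the control step outside cell division. Sdr16c6, a short-chain dehydrogenase/reductase, had 8.61, 5.99, 8.21 and 8.35 in metformin livers on day 14, against 4.26, 4.70, 4.99 and 4.59 on day 3. In control livers it had 6.96, 8.15, 7.60 and 5.75 on day 14, against 4.65, 4.21, 4.41 and 5.25 on day 3. Its log2 difference was 3.15 ± 0.46 in metformin livers (adjusted p = 0.000756) and 2.48 ± 0.46 in control livers (adjusted p = 0.00770), without overlap in either arm. Igfals, the acid-labile subunit that growth hormone induces, had 0.58 in metformin livers and 0.69 in control livers. Its metformin call was lost without day 14 replicates 3 or 4 or day 3 replicates 1, 2 or 3, its control call without any control rat other than day 3 replicate 2, and both with arrays set to a common median. Me3, mitochondrial malic enzyme, had 0.61 in metformin livers and 1.24 in control livers, and the metformin call was lost without day 14 replicates 3 or 4 or day 3 replicate 1 and with arrays set to a common median.

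**Figure D5:**
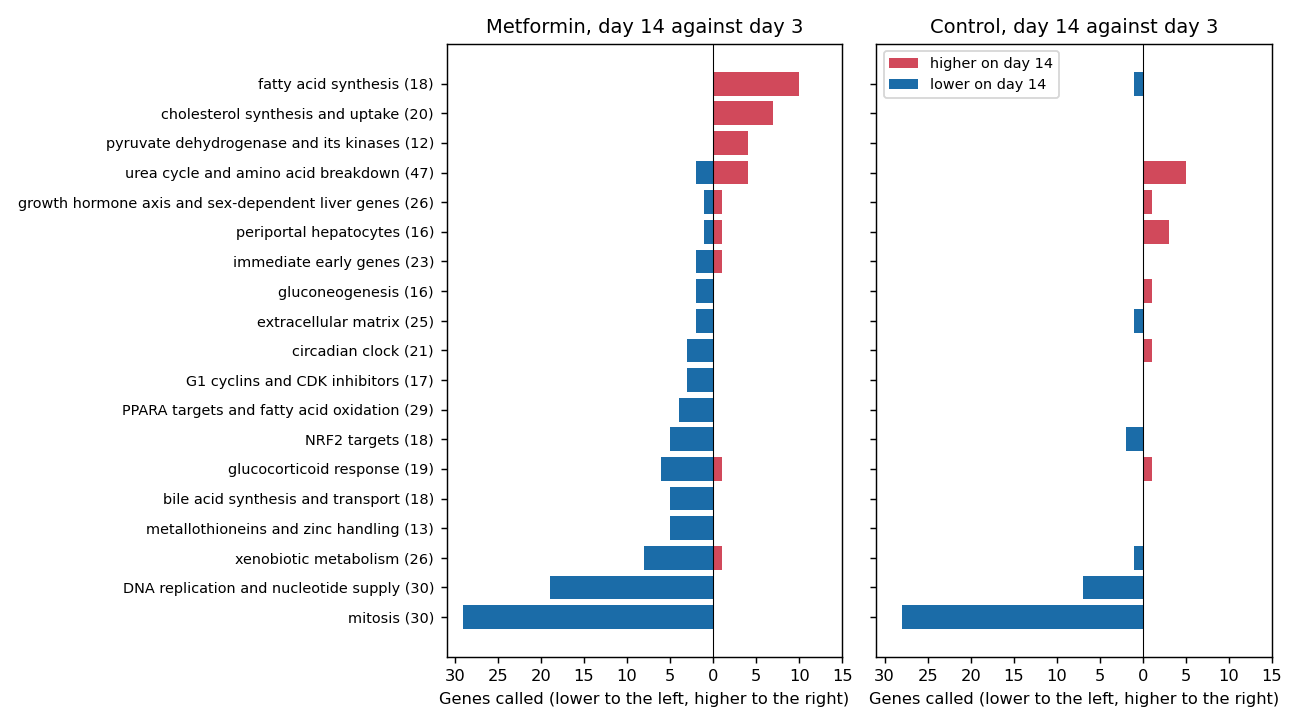
Number of genes called lower (to the left) and higher (to the right) on day 14 in metformin livers (left panel) and control livers (right panel) for the lists with 3 or more calls over both arms, with the number of tested genes in brackets. The bars for mitosis are 29 in metformin livers and 28 in control livers, and those for fatty acid synthesis are 10 higher in metformin livers and 1 lower in control livers.

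Stress programmes gave few calls. In the ATF4 list 25 of 30 tested genes had differences below 0, with a median of -0.24 in metformin livers and -0.08 in control livers, and only Sesn2, an inhibitor of mTORC1, was called (-1.10, adjusted p = 0.0382). That call was lost without day 14 replicates 2, 3 or 4 or day 3 replicates 3 or 4 and after quantile normalization and cyclic loess, and with arrays set to a common median 11 genes of the list were called lower. Nupr1, a stress-induced chromatin protein, had 11.43, 11.38, 11.83 and 11.67 in metformin livers on day 14, against 13.08, 12.42, 12.38 and 12.48 on day 3. The days did not overlap and the difference was -1.01 ± 0.34, which did not pass the test over 24 arrays (adjusted p = 0.0666) and did over the 16 arrays of both days (adjusted p = 0.0164) and with arrays set to a common median (adjusted p = 0.0279). None of the 23 genes of the unfolded protein response, 17 of heat shock, 33 of transport from endoplasmic reticulum to Golgi, 30 of ribosome assembly, 25 of the interferon response or 8 metformin carriers was called in either arm. Carriers and interferon genes had no call in the metformin step under the 3 scalings or without any 1 metformin rat either. With arrays set to a common median, 2 genes of the unfolded protein response and 4 of transport to the Golgi were called lower. After cyclic loess 3 transport genes, 1 heat shock gene and 1 gene of ribosome assembly were called higher, after quantile normalization 1 transport gene and 1 of ribosome assembly, and leaving out 1 metformin rat gave at most 2 calls in a list. In respiratory complex I, Ndufa1 rose by 0.91 ± 0.16 (adjusted p = 0.00210), Ndufa8 was called lower (-0.33), a call lost without day 14 replicates 2 or 3 or day 3 replicates 1, 2 or 3 and after quantile normalization and cyclic loess, and the other 21 subunits were not called. With arrays set to a common median 3 subunits were called lower. Over all tested genes 3.3% were called higher and 3.98% lower in the metformin step, and 0.889% were called in the control step. At these shares each list of this paragraph taken alone would hold few calls, and the rise and fall of complex I lie near them.

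Markers of other cell types gave few calls. Over all tested genes 7.28% were called in the metformin step, a share at which lists this short hold few calls or none. The part of these cell types in the results was not tested. None of 17 Kupffer cell, 12 endothelial, 8 cholangiocyte, 14 lymphocyte, 8 erythroid or 8 adipocyte markers was called in the metformin step. With arrays set to a common median 2 endothelial markers were called lower, and leaving out 1 rat gave at most 2 lower endothelial calls, 1 higher lymphocyte call and 1 higher erythroid call. Their summed level, as log2 of summed intensity, ranged from 14.05 to 14.50 in metformin livers on day 14, against 13.93 to 14.98 on day 3 for Kupffer cells. For erythroid markers it ranged from 18.20 to 18.65 on day 14, against 17.43 to 18.42 on day 3, with all 8 differences above 0 and a median of 0.51. In control livers erythroid markers had 17.96 to 18.98 on day 14, against 18.17 to 18.50 on day 3, with a median difference of 0.06. Kupffer cell markers of control livers had 13.56 to 14.83 on day 14, against 14.41 to 15.38 on day 3. Of the 17 Kupffer cell differences, 13 were below 0 in metformin livers (median -0.06) and 16 in control livers (median -0.39). The summed level of the 14 stellate cell markers was 13.06 to 13.56 in metformin livers on day 14, against 13.69 to 13.94 on day 3, and Col3a1, a fibrillar collagen, and Rgs5, a pericyte gene, were called lower. Both calls were lost without day 14 replicates 3 or 4 or day 3 replicates 3 or 4, and that of Col3a1 also without day 3 replicate 2. Col3a1 was not called after quantile normalization or cyclic loess, nor Rgs5 after cyclic loess, and 4 stellate markers were called lower with arrays set to a common median. Control livers had 12.99 to 13.97 on day 14 and 13.78 to 14.35 on day 3 for the same markers. Col3a1 had a difference of -0.70 in control livers (adjusted p = 0.140), against -0.73 in metformin livers. Mpo among 9 neutrophil markers and Cel among 8 pancreatic markers were called higher (0.27 and 0.31), calls lost under all 3 scalings.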

How the data were processed

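RNA from 70 mg of liver per rat (300 ng of total RNA) was measured on Affymetrix arrays. The authors made the deposited intensity values with RMA, per the submitters' processing notes, and no label or file used here names the software or its version. Each array's highest value was 982564 to 994415, so folds hold on the deposited scale. Array number limits the precision.

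The log2 of each deposited intensity was taken. Of 68842 probe sets, 23446 had 1 symbol, and each gene's probe set with the highest mean over 24 arrays was kept. Genes with 4 or more arrays above 4.28, the 30th percentile of the values, entered the test with limma 3.58.1 in R 4.3.3 over all 24 arrays, 1 mean per group, with p-values two-sided and adjusted over all 19686 genes by Benjamini-Hochberg. Only the spread between these rats enters the p-values, and cages of 2 or 3 rats are not tied to samples. On simulated data the metformin step recovered 54% of log2 changes of 0.5 and 100% of changes of 1, with 7 false of 183 calls. The simulations drew independent normal noise for each gene and array and changed a small set of genes. They hold no shift shared across an array, so their rates of recovery and false calls may not carry over to these arrays.

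The members, gene lists (44, of which 10 hold cell type markers) and tests were chosen with earlier results of these data known. Named genes were the 12 largest called rises and falls of the metformin step, up to 6 per direction for the difference of steps, 4 per direction for the control step, up to 2 per list by p, and Pck1, Fasn, Nupr1, Cyp7a1 and Mki67. Other list members are named to account for a count or as examples, and were chosen after their values were seen. Symbols beginning with LOC, RGD, AABR, Mir, Snor or Olr or ending in -ps and a number were left out.

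Alternatives changed the arrays fitted, the scaling, the filter, the choice of probe set, the variance model, the replicate block and each array in turn.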

Additional observations from a re-analysis of the deposited data

Results flagged for a closer look

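In 19 of 272 groups examined, over 68 named genes in 4 groups of 4 rats, 1 rat lay far from the other 3 by Dixon's test at the 95% level, and chance flags about 1 in 20 groups. All values are log2 intensities. In metformin livers of day 14, replicate 1 stood apart for Pnpla3 (11.46, others 15.03 to 15.18), Me1 (13.34, others 15.26 to 15.56), Mki67 (5.64, others 7.44 to 7.59), Top2a (5.35, others 6.46 to 6.61), Ect2 (4.95, others 5.92 to 6.07) and Lpin2 (8.27, others 7.20 to 7.34). Replicate 2 of that group stood apart for Sdr16c6 (5.99, others 8.21 to 8.61), Pck1 (11.66, others 14.44 to 14.82) and Ass1 (18.05, others 18.34 to 18.39).

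In metformin livers of day 3, replicate 1 was high for Il6r, a cytokine receptor (9.59, others 8.90 to 8.98), and for Nupr1 (13.08, others 12.38 to 12.48), and replicate 4 was low for Per1 (7.21, others 7.89 to 7.95). In control livers of day 14, replicate 1 was high for Ckap2 (5.55, others 4.86 to 4.97), and replicate 4 was low for Mvd (6.25, others 6.76 to 6.86) and high for Slc13a3, a dicarboxylate transporter (9.08, others 8.43 to 8.46). In control livers of day 3, replicate 2 was high for Mvd (7.29, others 6.44 to 6.58) and low for Cyp7a1 (13.25, others 15.73 to 15.95), and replicate 4 was high for Me3 (6.91, others 6.55 to 6.61) and Gclm (15.20, others 14.66 to 14.74).

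Slc27a3 was the 1 gene whose step between days differed between the arms by a test of the difference itself, with a step 0.76 higher in metformin livers than in control livers on the log2 scale (limma, adjusted p = 0.0276).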

How the results depend on the processing

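The 1433 calls (649 higher, 784 lower) became 896 (306 higher) over the 16 arrays of both days, 384 (98 and 286) over the 8 arrays of the arm alone, 702 (212 and 490) after quantile normalization, 2328 (149 and 2179) with arrays set to a common median and 817 (302 and 515) after cyclic loess. Calls of higher genes numbered 375 with the filter at the 50th percentile and 1025 with array weights. Leaving out 1 array gave 498 to 2226 calls, 155 to 1088 higher and 343 to 1138 lower. The 175 control calls became 320 (60 higher, 260 lower) with array weights, the 26 higher became 17 with arrays set to a common median, and leaving out 1 array gave 94 to 194 calls, 15 to 28 higher and 79 to 168 lower. The difference of steps called 0 genes over 16 arrays, with arrays set to a common median, with the filter at the 50th percentile, with every probe set, with a trend on mean intensity and with the replicate block, 2 after quantile normalization or cyclic loess, 3 with array weights, and 0 to 6 when 1 array was left out. The causes were not tested. Same-numbered rats share only a number: their deviations correlated at -0.158 to 0.094, and with the replicate block the metformin step called 1245 genes and the control step 152. Over the 68 named genes, 1427 rechecks kept the direction and the side of the threshold in 1274, lost the call in 149, gained it in 3, and turned the sign in 1, that of Cyp7a1 (-0.71, with 0.0177 without metformin day 14 replicate 1 and a lowest value of -1.22 without metformin day 3 replicate 4). Of the 649 rises, 282 did not pass the filter at the 50th percentile.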

Other observations

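Metformin livers of day 1, which enter the comparisons here only through the shared estimate of spread, give the same arm's earlier level on the log2 scale (n = 4 rats each). The SD follows each mean. Mt2A averaged 16.81 ± 0.38 on day 1, then 16.19 ± 1.75 at day 3 and 11.55 ± 0.68 at day 14. Pck1 averaged 17.22 ± 0.64, then 17.04 ± 0.51 and 13.86 ± 1.48 at the same times. For Mki67 the means were 11.19 ± 1.21 on day 1, 11.08 ± 0.83 at day 3 and 7.05 ± 0.94 at day 14. Acly averaged 13.90 ± 0.60 on day 1, then 15.05 ± 0.66 and 17.30 ± 0.45, and Fasn 13.72 ± 0.64, then 14.47 ± 0.85 and 17.11 ± 0.59. In some other named genes the day 3 mean lay outside those of days 1 and 14. Nupr1 averaged 11.61 ± 0.42 on day 1, then 12.59 ± 0.33 and 11.58 ± 0.21. Slc27a3 averaged 4.397 ± 0.046, then 4.127 ± 0.15 and 4.834 ± 0.031. In control livers Fasn averaged 14.77 ± 0.84 on day 1, then 13.65 ± 0.53 and 14.03 ± 1.22. The control means of Acly were 14.88 ± 0.68, 14.34 ± 0.23 and 14.85 ± 0.45. Change before day 3 was not tested.

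A few called genes outside the lists described above had the following log2 differences between day 14 and day 3 of metformin. Sgk2, a serum and glucocorticoid regulated kinase, rose by 1.53 ± 0.37 (SE, adjusted p = 0.0167), with 9.45 to 10.49 on day 14, against 7.80 to 8.66 on day 3. Its difference was -0.65 in control livers (adjusted p = 0.609). Marveld1, a membrane protein, rose by 1.52 in metformin livers, a call lost without day 3 replicate 3 (adjusted p = 0.0567), and had 1.14 in control livers (adjusted p = 0.178). Gimd1 rose by 1.85, a call lost without day 3 replicates 1 or 4 (adjusted p 0.0526 and 0.0666). Ier5, an immediate early gene, rose by 0.81 ± 0.11 (adjusted p = 0.000562), with no overlap between days, while Klf6, a zinc finger factor of the same list, was called lower (-0.45) and lost its call without day 14 replicate 3 or day 3 replicates 3 or 4. Ctsl, a lysosomal protease, fell by 0.54 ± 0.11 (adjusted p = 0.00499). In control livers Gimd1 had 0.51, Ier5 0.17, Klf6 0.00 and Ctsl -0.14, none of them called. The matrix gene Eln, elastin, fell by 0.64, a call lost without day 14 replicate 4 (adjusted p = 0.0569). Its difference was -0.53 in control livers (adjusted p = 0.0962). Igfbp3, a carrier of IGF, fell by 0.88, a call lost without day 14 replicate 4 or day 3 replicates 2 or 4. Its difference was -0.80 in control livers (adjusted p = 0.0838). For Eln and Igfbp3 the days did not overlap in either arm.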
